A study of Mus musculus with 2 samples.

Results

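The miR-181 family of the mouse comprises 6 hairpin genes, Mir181a-1, Mir181b-1, Mir181a-2, Mir181b-2, Mir181c and Mir181d, which lie as 3 pairs on chromosomes 1, 2 and 8. They were chosen by name and are 6 of the 1973 genes counted. Small RNA (fragments below 30 nt) was sequenced from the forebrain of healthy B6NCrl embryos at 10.5 days of development, with males and females pooled. The samples form 1 group, with no treatment or altered allele named, of 2 libraries: replicate 1 came from 69 embryos and replicate 2 from 51. Each library is therefore a pool, and the spread given below is that between 2 pools. The study has no second tissue, stage or condition, so the family was compared between hairpins, pairs and libraries.

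A miRNA gene is transcribed into a hairpin, from whose arms Drosha and Dicer release a duplex of a 5p and a 3p strand. One strand is loaded into an Argonaute protein and guides it to mRNAs that pair with its seed, bases 2 to 8. The miR-181 family is known from developing lymphocytes, where it tunes antigen receptor signalling, and from the brain and retina, where it has been linked to neuronal and glial development. Whether a difference in counts reflects more cells that make a miRNA or more of it per cell cannot be told apart in pooled tissue.

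The mature sequences are shown first because they decide which reads can be assigned to 1 hairpin. They are from RefSeq (GRCm38.p6), where all 6 genes have mature entries, and run from 5′ to 3′ with the seed in capitals. The 5p strands of the 6 hairpins are 4 different sequences:

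miR-181a-5p: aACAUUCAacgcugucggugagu

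miR-181b-5p: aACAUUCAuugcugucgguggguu

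miR-181c-5p: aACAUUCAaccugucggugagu

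miR-181d-5p: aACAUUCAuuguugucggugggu

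All 4 carry the same seed, and no gene outside the family carries it among the 1058 genes with a mature entry. With positions counted from 1 at the 5′ end, miR-181b-5p differs from miR-181a-5p by A9U, C10U and A21G and is 1 base longer. The strand of miR-181d-5p differs from miR-181b-5p by C12U and is 1 base shorter. The strand of miR-181c-5p equals miR-181a-5p with 1 base, at position 11, left out. The 4 strands are thus alike in their first 8 bases. Beyond these, miR-181a-5p and miR-181c-5p stay alike up to base 10, and miR-181b-5p and miR-181d-5p up to base 11.

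The 3p strands are 6 different sequences:

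miR-181a-1-3p: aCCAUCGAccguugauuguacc

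miR-181a-2-3p: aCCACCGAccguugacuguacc

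miR-181c-3p: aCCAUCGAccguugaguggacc

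miR-181b-1-3p: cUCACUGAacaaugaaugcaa

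miR-181b-2-3p: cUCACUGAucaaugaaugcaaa

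miR-181d-3p: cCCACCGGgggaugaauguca

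The 3p strands of Mir181a-1 and Mir181c share 1 seed, those of Mir181b-1 and Mir181b-2 share another, and those of Mir181a-2 and Mir181d each have their own. Between the 3p strands of Mir181a-1 and Mir181a-2 the substitutions are U5C and U16C, the first of which lies in the seed. Between those of Mir181b-1 and Mir181b-2 the substitution is A9U, beside a difference of 1 base in length.

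The deposited counts gave no gene a read that mapped to several places, and this falls unevenly on the family. The strand miR-181a-5p is the same in Mir181a-1 and Mir181a-2, and miR-181b-5p is the same in Mir181b-1 and Mir181b-2, so a read of exactly either strand could not be counted. The stretches around them show how far a read has to reach to fall on 1 hairpin, with the unbroken run that both hairpins have in common in capitals:

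Mir181a-1: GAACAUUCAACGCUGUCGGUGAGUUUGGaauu

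Mir181a-2: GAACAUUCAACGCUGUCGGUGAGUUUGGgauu

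Mir181b-1: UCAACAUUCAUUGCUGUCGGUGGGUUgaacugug

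Mir181b-2: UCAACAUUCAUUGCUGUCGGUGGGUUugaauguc

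The miR-181a hairpins are identical over 28 bases, from 1 base before the mature strand to 4 bases after it. The miR-181b hairpins are identical over 26 bases and part directly after the last base of the mature strand. The counts of these 4 hairpins can hold only reads that are unique to 1 hairpin, such as those of the 3p strands, and are lower limits. The files give counts per hairpin, so the split between strands was not measured. Both strands of Mir181c and of Mir181d were found in no other gene of the RefSeq table.

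The 3 pairs lie in different surroundings (mm10, GENCODE M21, 1-based). On chromosome 1, plus strand, Mir181a-1 (ENSMUSG00000065565.1) spans 137966455 to 137966541 and Mir181b-1 (ENSMUSG00000065458.1) spans 137966639 to 137966718, with 97 bases between them. Both lie in an intron of the noncoding transcript Gm4258, and Mir181b-1 lies within an exon of the lincRNA A430106G13Rik, whose first bases overlap Mir181a-1. On the opposite strand both lie in an intron of the lincRNA Gm26936.

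On chromosome 2, plus strand, Mir181a-2 (ENSMUSG00000065423.1) spans 38852735 to 38852810 and Mir181b-2 (ENSMUSG00000065578.1) spans 38853830 to 38853918, 1019 bases apart. They lie opposite to an intron of Nr6a1, which encodes an orphan nuclear receptor, and 364 bases separate Mir181a-2 from the end of the antisense transcript Nr6a1os. The transcript Gm44144 runs opposite to Mir181b-2. On chromosome 8, minus strand, Mir181c (ENSMUSG00000065483.1) spans 84178873 to 84178961 and Mir181d (ENSMUSG00000076338.1) spans 84178716 to 84178787, 85 bases apart in an intron of Nanos3, a germ cell gene. The identifier of Mir181c has another version in GENCODE M21 than in the files, so the ends used for counting may have been others. The gene 4930432K21Rik lies on the opposite strand, 6125 bases from Mir181d. The Mir23a, Mir27a and Mir24-2 hairpins also lie on the opposite strand, Mir23a at 29556 bases from Mir181c.

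**Figure D1:**
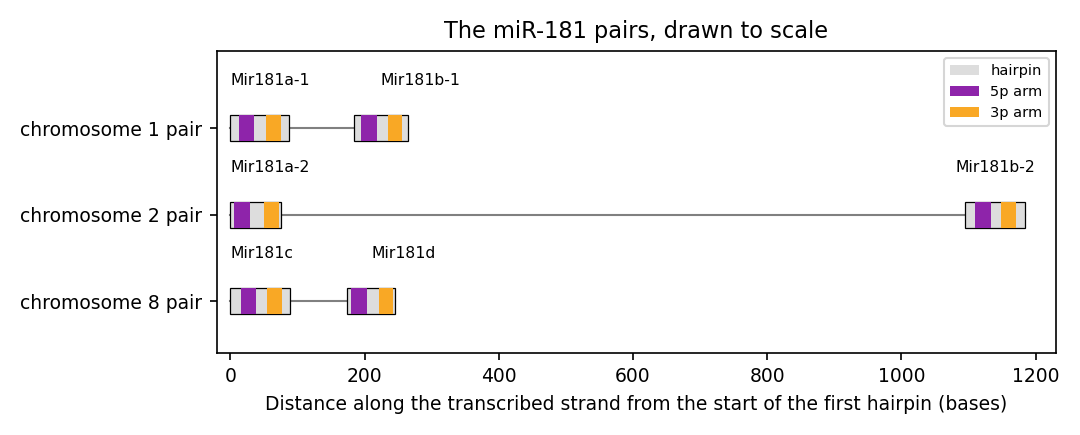
The 3 miR-181 pairs, drawn to scale by distance in bases along the transcribed strand from the start of the first hairpin of each pair. Gray boxes are hairpins, purple boxes 5p strands and yellow boxes 3p strands. The hairpins are 97 bases apart on chromosome 1, 1019 on chromosome 2 and 85 on chromosome 8, and in each pair the miR-181a or miR-181c hairpin comes first.

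The family held 58126 of 3256070 gene counts in replicate 1, or 1.79% (95% exact Clopper-Pearson interval 1.77 to 1.80), and 57150 of 3574530 in replicate 2, or 1.60% (1.59 to 1.61). The mean was 1.69% ± 0.13 (SD, n = 2), and intervals here and below allow for the sampling of reads but not for PCR copies or differences between pools. Of the family's counts the chromosome 8 pair held 69.1% ± 0.51, the chromosome 2 pair 17.2% ± 0.034 and the chromosome 1 pair 13.7% ± 0.54 (SD, n = 2). More than 2 in 3 counted miR-181 reads thus lay in the hairpins whose strands are unique. All 6 members passed the filter of a mean count of 10.

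Mir181c and Mir181d had the most counted reads of the members and were level with each other. The other hairpins are lower limits, so which member is the highest was not measured. Mir181c had 19991 counts in replicate 1 and 20149 in replicate 2, which is 6140 and 5637 counts per 1000000 gene counts (CPM) and a mean of 5888 ± 356 CPM (SD, n = 2). Mir181d had 19943 and 19526 counts, which is 6125 and 5463 CPM and a mean of 5794 ± 468 CPM. Both were higher in replicate 1 and their values overlap, and by mean CPM they ranked 43 and 44 of the 1973 genes.

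Mir181a-1 and Mir181b-2, which belong to different pairs, came next. Mir181a-1 had 8020 and 7410 counts, or 2463 and 2073 CPM (2268 ± 276, SD, n = 2), and Mir181b-2 had 6647 and 7499 counts, or 2041 and 2098 CPM (2070 ± 40). Their ranges overlap, and Mir181a-1 was higher in replicate 1 while Mir181b-2 was slightly higher in replicate 2. Their partners had fewer counted reads. Mir181a-2 had 3348 and 2356 counts, or 1028 and 659 CPM (844 ± 261, SD, n = 2), which is the widest relative spread in the family.

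Mir181b-1 had by far the fewest counted reads. It had 177 counts in replicate 1 (54.4 CPM, 95% exact interval 46.6 to 63.0) and 210 in replicate 2 (58.7 CPM, 51.1 to 67.3), with a mean of 56.6 ± 3.1 CPM (SD, n = 2) and rank 244. It lies 97 bases from Mir181a-1, whose mean level was 40.0-fold higher by the mean log2 ratio. No read was counted on the opposite strand of any of the 6 hairpins in either library, where a count of 0 allows up to 0.921 CPM in replicate 1 and 0.839 CPM in replicate 2. Counts on either strand and on the strand of the gene are therefore equal for every member, also for Mir181b-2, which Gm44144 overlaps on the other strand.

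**Figure D2:**
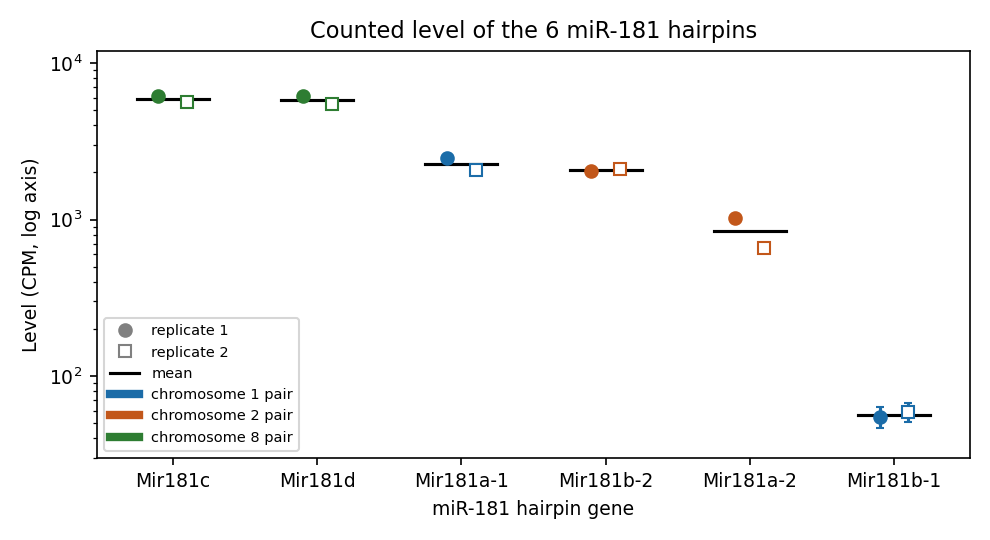
Counted level in CPM (log axis) of each miR-181 hairpin, with replicate 1 as filled circles, replicate 2 as open squares, the mean as a line, and 95% exact intervals for counting error, mostly smaller than the symbols. Colours give the pair. Mir181c and Mir181d stand at 5463 to 6140 CPM and Mir181b-1 at 54.4 to 58.7 CPM.

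The order of the CPM levels was therefore Mir181c, Mir181d, Mir181a-1, Mir181b-2, Mir181a-2 and Mir181b-1. The first and second overlapped in their library values, as did the third and the fourth. The other steps did not overlap: Mir181d exceeded Mir181a-1 by 2.55-fold in mean CPM, Mir181b-2 exceeded Mir181a-2 by 2.45-fold and Mir181a-2 exceeded Mir181b-1 by 14.9-fold. The last 4 places compare lower limits with each other. The step from Mir181d to Mir181a-1 sets a hairpin without a shared strand against a lower limit, so 2.55-fold may be too large. A read of this size class can span a whole mature strand, so CPM was not divided by length. Per 100 bases of hairpin Mir181d stood above Mir181c, with 8047 against 6616 CPM per 100 bases, and the rest of the order was the same, from 2607 for Mir181a-1 to 70.7 for Mir181b-1.

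Ratios within a library do not depend on library size. On chromosomes 1 and 2 they set a lower limit against another lower limit, so they describe the counted reads and not the balance of the hairpins. On chromosome 8 the log2 ratio of Mir181c over Mir181d was 0.0035 in replicate 1 and 0.05 in replicate 2 (0.02 ± 0.03, SD, n = 2), a near equal level. On chromosome 1 the log2 ratio of Mir181a-1 over Mir181b-1 was 5.50 and 5.14 (5.32 ± 0.26). On chromosome 2 the direction was the opposite, with −0.99 and −1.67 for Mir181a-2 over Mir181b-2 (−1.33 ± 0.48).

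The counted reads of paralogs were compared in the same way, again between lower limits. For the miR-181a hairpins, the log2 ratio of Mir181a-1 over Mir181a-2 was 1.26 and 1.65 (1.46 ± 0.28, SD, n = 2). For the miR-181b hairpins the chromosome 2 copy had more counted reads, and the log2 ratio of Mir181b-2 over Mir181b-1 was 5.23 and 5.16 (5.19 ± 0.05). Since reads that lie within the shared 5p stretch of these paralogs are left uncounted, which paralog is the higher one was not measured. Summed over both hairpins, the counted reads of the chromosome 1 pair lay at −0.29 and −0.37 on the log2 scale against the chromosome 2 pair.

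The chromosome 8 pair exceeded the chromosome 1 pair by 4.87-fold in replicate 1 and 5.21-fold in replicate 2. It exceeded the chromosome 2 pair by 2.00 and 2.01 on the log2 scale. Its lead over the chromosome 2 pair differed by less between libraries (log2 2.00 ± 0.0078) than that over the chromosome 1 pair (2.33 ± 0.07, SD, n = 2). Because the shared 5p reads are missing from both other pairs, these ratios may be too large.

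**Figure D3:**
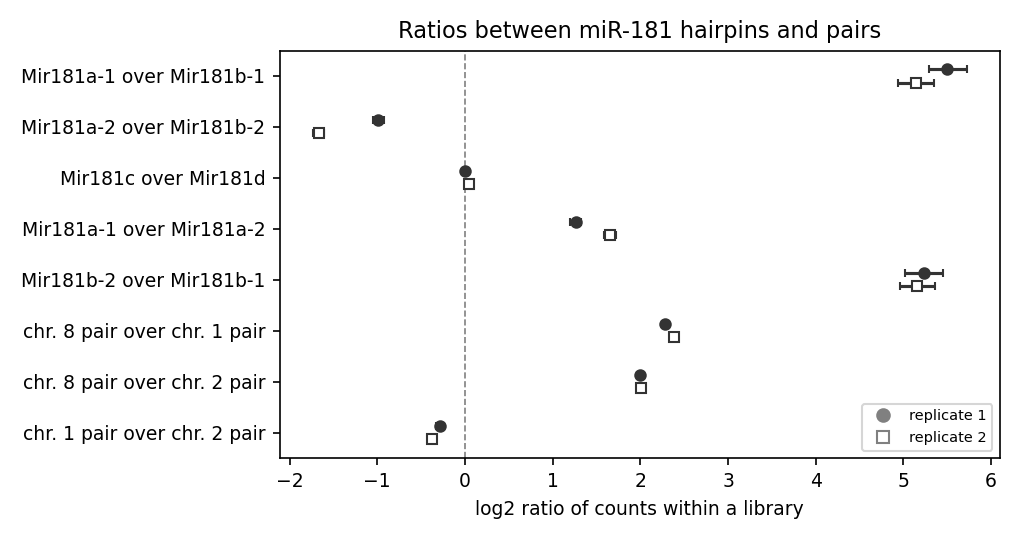
Log2 ratio of counts within each library for 8 comparisons between miR-181 hairpins and pairs, with replicate 1 as filled circles, replicate 2 as open squares and 95% exact intervals for counting error. Mir181c over Mir181d lies at 0.0035 and 0.05, and Mir181a-2 over Mir181b-2 shows the widest gap between libraries, −0.99 against −1.67.

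The libraries were compared for each gene by an exact binomial test, two-sided, with Benjamini-Hochberg adjustment over the 401 genes whose mean count reached 10. It allows for the sampling of reads alone and compares the 2 pools, not conditions. At an adjusted p under 0.05 it called 174 of 401 genes (43.4%), 79 of them higher in replicate 1 (19.7%) and 95 lower (23.7%). In the family 5 of 6 members were called different, 4 higher and 1 lower in replicate 1. All 6 had a mean count above 100, and calls by this test grow with depth. Of the 271 genes whose mean count reached 100, 27.3% were called higher and 32.5% lower. The median log2 ratio was 0.11 over the 6 and −0.03 over all genes tested. With 43.4% of all genes called, a call alone sets no member apart, and the sizes are given below.

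Mir181a-2 had the largest difference of the family. Its log2 ratio of replicate 1 over replicate 2, after scaling by TMM (edgeR's trimmed mean factors), was 0.61 (95% exact interval 0.53 to 0.69, adjusted p = 1.6e-55, exact binomial test), 1.53-fold higher in replicate 1. Of the 271 genes whose mean count reached 100, 10 had a larger difference in either direction. Mir181b-2, 1019 bases away, had a log2 ratio of −0.07 (−0.12 to −0.02, adjusted p = 0.010, exact binomial test), which was no longer called when scaled on the total counts (−0.04, adjusted p = 0.20, exact binomial test). The log2 ratio between the partners on chromosome 2 thus differed by 0.68 between the pools, and they lay closer together in replicate 1.

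The other members differed less. Mir181a-1 rose by 0.22 in replicate 1 (0.17 to 0.26, adjusted p = 5.1e-20, exact binomial test), Mir181d by 0.13 (0.11 to 0.16) and Mir181c by 0.09 (0.06 to 0.12, adjusted p = 6.4e-10, exact binomial test). Mir181b-1 had a log2 ratio of −0.14 with an interval from −0.44 to 0.15 and was not called (adjusted p = 0.51, exact binomial test). Both miR-181a hairpins were thus higher in replicate 1, while neither miR-181b hairpin was. No member changed direction under the scalings and filters tried.

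The spread over all genes between the pools gives a scale for these differences. The biological coefficient of variation, estimated by edgeR with both libraries as replicates, was 14.0%. In edgeR's exact test with that spread, 4 of 401 genes and 0 of 6 members passed an adjusted p of 0.05. At an unadjusted p under 0.05 the numbers were 22 genes and 1 member, Mir181a-2 (p = 0.035, edgeR exact test, adjusted p = 0.67). The spread was estimated from the same 2 libraries that the test compares, so it cannot separate that spread from a difference between them, and nothing about the members follows from it.

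**Figure D4:**
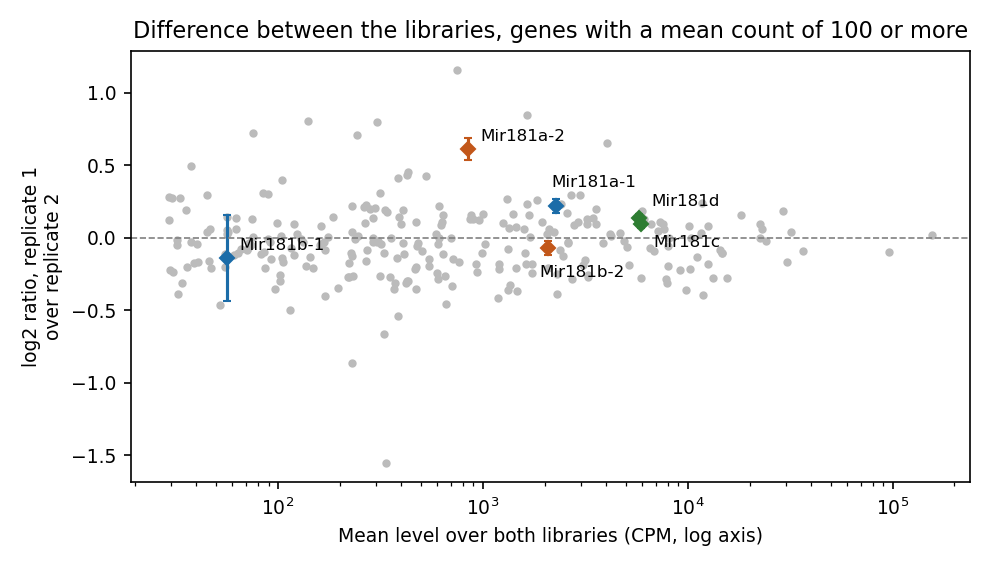
Log2 ratio of replicate 1 over replicate 2 against mean level in CPM (log axis) for the 271 genes whose mean count reached 100 (gray), with the 6 miR-181 hairpins as coloured diamonds and 95% exact intervals for counting error. Mir181a-2 stands at 0.61, and the other 5 members lie between −0.14 and 0.22.

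Among genes that share a mature strand with another gene, 3 of the 4 miR-181 hairpins stood above the median level. Of the 401 genes tested, 311 had no mature strand in common with another gene of the RefSeq table, 38 had some and 8 had all, and 44 had no entry. Their median levels were 237, 84.9, 74.2 and 24.4 CPM. Mir181a-1 and Mir181b-2 ranked 3 and 4 among the 38 genes with some strands shared and Mir181a-2 ranked 8, while Mir181b-1 ranked 25. Mir181c and Mir181d ranked 40 and 41 of the 311 without a shared strand.

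Of the 38 genes with some strands shared, 11 were called higher in replicate 1 (28.9%) and 3 lower (7.89%), beside 19.7% and 23.7% of all genes tested. The log2 ratios of the class had a median of 0.0014 and an SD of 0.37 over genes. The class held 2.56% of all counts. Its 38 genes include 4 of the miR-181 family.

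**Figure D5:**
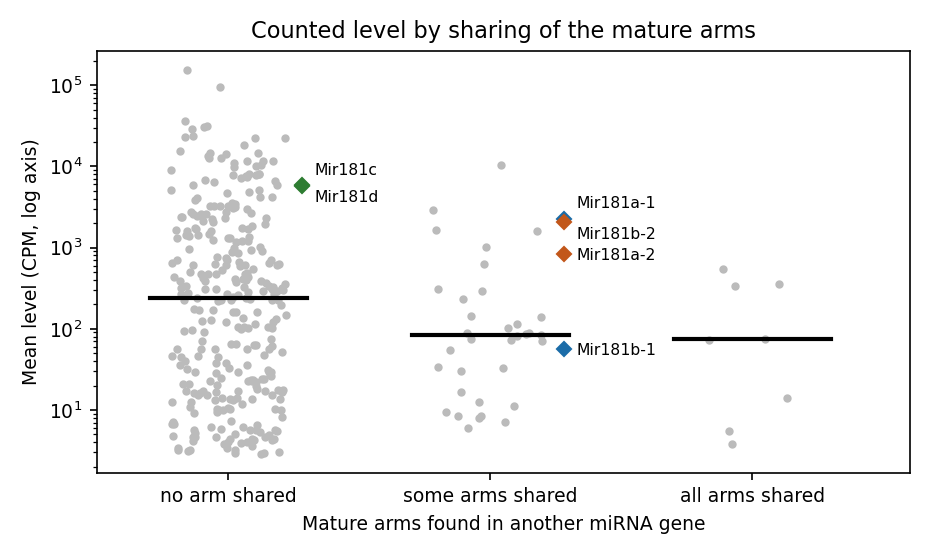
Mean level in CPM (log axis) of the tested genes with no, some or all mature strands found in another miRNA gene. Gray points are other genes, diamonds the miR-181 hairpins and black lines the class medians of 237, 84.9 and 74.2 CPM. Mir181a-1, Mir181b-2 and Mir181a-2 stand above the median of their class and Mir181b-1 below it.

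A comparison with families of similar build, chosen with earlier results known, shows how far the family's counts rest on such hairpins. Hairpins with a shared strand gave 30.9% ± 0.51 of the miR-181 counts (SD, n = 2), through 4 of 6 hairpins. In miR-30 they gave 0.32% ± 0.05, through 2 of 6 hairpins (Mir30c-1 and Mir30c-2), with Mir30b and Mir30d not matched to a mature entry. In miR-23/27/24 they gave 0.86% ± 0.07, through Mir24-2 alone, and in miR-29 1.73% in each library, through Mir29b-1 and Mir29b-2. The miR-29 value rests on few reads. That family had 578 counts in each library, and these 2 hairpins had mean levels of 2.04 and 0.894 CPM. Mir24-1 was not analysed here. The highest such hairpin of these 3 families was Mir30c-1 with 103 CPM, below Mir181a-1, Mir181b-2 and Mir181a-2 and above Mir181b-1. These are lower limits in each family, and no test of the difference was run.

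By share of all counts the family stood between these. The miR-30 family held 4.29% ± 0.12 of the gene counts, led by Mir30e and Mir30a, miR-23/27/24 held 1.05% ± 0.10, led by Mir23b and Mir23a, and miR-29 held 0.017% ± 0.0011 (SD, n = 2), led by Mir29c and Mir29a. In them 4 of 6, 3 of 5 and 1 of 2 tested members were called between the libraries, with median log2 ratios of −0.03, 0.13 and 0.24. Of all genes tested 43.4% were called, and of those whose mean count reached 100, 27.3% were called higher and 32.5% lower. Mir23b had 6409 and 5533 CPM. After their own partner, Mir23b and then Mir30d (6468 and 5799 CPM) were the genes nearest in level to both Mir181c and Mir181d over the 2 libraries, at a distance of 0.07 and 0.09 from Mir181c on the log2 scale. With 2 libraries this is a likeness of level and carries no test.

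Lists of genes taken as markers of the tissue and of other cells place these levels. Calls in these lists stand beside 19.7% of all genes tested that were called higher in replicate 1 and 23.7% called lower. Among genes whose mean count reached 100 these shares were 27.3% and 32.5%. The genes listed for neural progenitors held 8.37% and 7.54% of the gene counts in replicate 1 and 2, and 4 of 5 were called higher in replicate 1. Most of that share was Mir130a (32697 and 31134 CPM) and Mir99a (31196 and 26882 CPM). Mir92b had 19407 and 17048 CPM, and Mir9-3 had 363 and 315 CPM. The endothelial and vessel wall markers held 3.29% and 3.53% (1 of 3 higher, 1 lower), most of it Mir126a (29029 and 31930 CPM), with Mir143 at 3842 and 3284 CPM. The eye and sensory markers, led by Mir182 and Mir183, held 0.838% and 0.834% (1 of 5 higher, 3 lower). The leukocyte markers, of interest because lymphocytes express miR-181, held 0.893% and 0.868%, with 5 of 6 listed genes counted and 1 of 4 tested called higher. Most of that share was Mir342 (8191 and 8023 CPM), and Mir155 had 417 and 382 CPM. The other counted genes of this list were lower. Mir223 had 303 and 258 CPM and was the gene called higher, and Mir146 had 18.1 and 16.8 CPM. Mir150 had 3.69 and 1.12 CPM, too few counts to be tested. The leukocyte share is thus mainly a reading of Mir342. The red blood cell markers Mir451a and Mir144 held 0.0661% and 0.0760% with 1 of 2 lower. The neuron markers, led by Mir137 and Mir128-1, held 0.0661% and 0.0498% (3 of 7 higher), and the hindbrain and trunk markers, led by Mir10a and Mir10b, 0.0237% and 0.0297% (2 of 4 lower). Mir128-1 and other genes of the neuron list share a mature strand with another gene. So do genes of the neural progenitor list and of the hindbrain and trunk list. The shares of these lists are therefore lower limits and do not measure how many such cells were present. Mir142 and Mir9-1 of these lists were not analysed here. How far the genes of any list are confined to that cell type was not tested, so no share measures a number of cells. No counted marker was at 0 in both libraries, and the part of these cells in the miR-181 levels was not tested.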

How the data were processed

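The deposited values are raw read counts per gene, with no normalization, for assembly mm10 and genome annotation M4, per the authors' notes with the files. For aligner and counter, names were not given in the sources used here. Counts on the gene's own strand were taken, which held 96.7% and 96.4% of the counts on either strand in replicate 1 and 2. Set aside as belonging to no gene were unmapped reads (24.6% and 25.4% of all reads), reads that mapped to several places (30.1% and 28.8%) and reads outside the listed genes (7.28% and 8.82%). Depth was 3256070 and 3574530 gene counts. The libraries differed by 45.4 times sampling noise (chi-square over its degrees of freedom), so they are not 1 library deposited again.

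Symbols and positions came from GENCODE M21, which matched 1894 of 1973 identifiers. Mature strands came from RefSeq, where 916 counted genes had an entry. A strand counted as shared if another gene's mature strand or hairpin held it exactly. The Mir181c hairpin was not used here. CPM is counts per 1000000 gene counts. TMM factors came from edgeR 4.0.16 (R 4.3.3) over genes whose mean count reached 10, and log2 ratios between libraries used a pseudocount of 0.5 counts. The exact binomial test ran over 401 genes. Its code was tested on counts simulated with set fold changes and sampling noise alone. The spread between pools was not simulated, so this check says nothing about how the test handles it. With 1 group, edgeR's quasi-likelihood test had nothing to compare. Alternatives were other scalings (total counts, DESeq2 1.42.0), filters, both strands, other denominators, a pseudocount of 1 CPM, hairpin length, single libraries and edgeR's exact test. Python 3.11.15, scipy 1.17.1 and pandas 2.3.3 were used.

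The named genes are the 6 members, the 3 genes nearest in level to Mir181c and Mir181d, the 2 highest of each list, and genes that overlap a member or lie on the opposite strand within 10 kb. Mir30c-1, Mir30c-2, Mir29b-1, Mir29b-2, Mir24-2, Mir30b, Nr6a1os, and the place of Mir23a, Mir27a and Mir24-2 near Mir181c, were added after their values were seen. So were Mir92b, Mir9-3, Mir223, Mir146 and Mir150. Members, lists and tests were chosen with earlier results of these data known. Separate biosamples are named for the 2 pools, and p-values compare these libraries only.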

Additional observations from a re-analysis of the deposited data

How the results depend on the processing

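The 5 called members kept their direction under every scaling and filter tried. With total-count scaling 4 of 6 members were called, and with DESeq2 size factors, a mean count of 1 or 100, no filter or either strand 5 of 6. TMM factors from all genes, chosen after seeing the data, also gave 5. Only edgeR's exact test with the common dispersion changed the counts by more than 1.5 times, to 4 genes, 1 higher and 3 lower in replicate 1. Its spread comes from the same 2 libraries that it compares. Total-count scaling moved the split of calls to 93 higher and 84 lower, and the median of all genes by less than 0.1.

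With all reads as denominator the family held 0.635%, and with only the hairpins that share no strand 1.17%. Per base of hairpin the log2 ratio of Mir181c over Mir181d turned to −0.28, since the Mir181d hairpin is shorter, and the ratios of the chromosome 8 pair became 2.46 over the chromosome 1 pair and 2.09 over the chromosome 2 pair. The other ratios kept their direction. No test can be run without either replicate, so only levels and ratios were taken from single libraries. No paired analysis was possible because there is 1 group. Depth limits Mir181b-1 most, and the reads lost to several places, 44.3 and 48.6 times the family's counts, are not assigned to any miRNA in the files.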
